A study of Mus musculus with 2 samples.

Results

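Interfollicular basal keratinocytes are the cells of the lowest epidermal layer that lie between the forming hair follicles. They were picked out of single-cell RNA profiles of mouse embryonic skin by their transcripts. A cell barcode was a member when it was absent from the authors' list of dermal barcodes, had 1000 or more genes and had under 10% mitochondrial UMIs (unique molecular identifiers, 1 per captured transcript). It also needed 4 or more of Krt5, Krt14, Krt15, Trp63, Epcam and Perp, with 10 or more UMIs of Krt5 plus Krt14, fewer than 3 of the hair placode genes Shh, Dkk4, Edar, Lhx2, Wnt10b, Fgf20, Bmp2 and Ltb, and under 10 UMIs of Krt1, Krt10, Krtdap and Sbsn together. This gave 391 of 19514 barcodes, 144 of 10449 in the Wntless mutant library and 247 of 9065 in the wildtype library.

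Both libraries came from dorsolateral and flank skin of littermate embryos at E14.5, dissociated with trypsin and sorted after DAPI staining. The mutant library pooled 2 to 3 embryos from crosses of K14Cre mice to Wntless fl/fl mice, and the wildtype library pooled 2 to 3 control littermates. The K14 (keratin 14) promoter drives Cre in keratinocytes, so the conditional Wntless (Wls) allele is a target there and not in the dermis. The labels do not give the alleles of each pooled embryo. With 1 library per genotype, no difference has a replicate check or a test, and every interval is a 95% interval for counting error only. Cells of 1 library are not replicates of a genotype.

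Basal keratinocytes divide, attach to the basement membrane through hemidesmosomes and feed the layers above. In embryonic skin they are also the main epidermal source of Wnt ligands, which need the carrier protein Wls to reach the cell surface. Wnt received by keratinocytes stabilises beta-catenin, which with Tcf and Lef factors turns on feedback genes and, at points in the sheet, starts a hair placode.

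The cells carried the markers of their name. Krt5 and Krt14, the paired keratins of the basal layer, reached 858 and 1286 CPM (UMIs of the gene per 1000000 UMIs of all genes, summed over the cells) in mutant basal cells, and 894 and 1634 CPM in wildtype basal cells. In dermal cells of either library each was at or below 1.54 CPM. Trp63, the transcription factor of basal identity, stood at 188 CPM in mutant and 165 CPM in wildtype basal cells. Krt15, a further basal keratin, stood at 1664 CPM in mutant and 1054 CPM in wildtype basal cells. These genes chose the cells, so their values only describe them.

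The keratinocyte limits kept 154 mutant and 466 wildtype barcodes. The placode limit then left 152 mutant and 263 wildtype barcodes, and the suprabasal limit 144 and 247. Near the edge, 13 mutant and 48 wildtype members had 2 placode genes of the rule, while 1 mutant and 41 wildtype cells just outside had 3. In the mutant library 1 member, and in the wildtype library 6 members, had 10 to 14 keratin UMIs, and 0 mutant and 6 wildtype cells just outside had 5 to 9. For the suprabasal limit, 10 mutant and 22 wildtype members had 5 to 9 UMIs and 1 mutant and 4 wildtype cells just outside had 10 to 14.

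Mutant basal cells were deeper, at medians of 24914 UMIs and 4204 genes in mutant against 16821 UMIs and 3572 genes in wildtype cells. The median share of mitochondrial UMIs was 3.62% in mutant and 2.82% in wildtype members. Gm42418, which overlaps ribosomal RNA genes, stood at 7685 CPM in mutant and 3689.6 CPM in wildtype members, and the mitochondrial genes mt-Atp6 and mt-Co3 were at log2 ratios, mutant over wildtype, of 0.41 and 0.44; the part of these differences in the results was not tested. The sums behind the values below are 3922187 mutant and 4836260 wildtype UMIs. The 2 libraries shared 19 barcode sequences, which 0 mutant and 3 wildtype members carried. Some members also held RNA of other cell types, and the summed level of each list was higher in wildtype. Summed over each marker list, macrophage and mast cell markers stood at 8.41 CPM in mutant and 130.1 CPM in wildtype members, endothelial markers at 26.5 and 105 CPM, muscle markers at 23.7 and 65.3 CPM, mural markers at 16.1 and 41.8 CPM, Schwann markers at 21.7 and 35.4 CPM, melanoblast markers at 13.0 and 18.6 CPM and Merkel cell markers at 3.57 and 9.10 CPM. Markers at 0 numbered 4 of 13 in mutant and 1 of 13 in wildtype members for the macrophage list, 3 and 0 of 9 for endothelium, 3 and 1 of 10 for muscle, 1 and 0 of 8 for mural, 2 and 1 of 8 for Schwann, 1 and 1 of 7 for melanoblast and 3 and 1 of 6 for Merkel cells. Fibroblast markers stood at 1749 CPM in mutant and 2270.3 CPM in wildtype members, and red cell markers at 5322 and 9592 CPM, with 96.6% of the red cell UMIs in 5 mutant cells and 68.0% in 5 wildtype cells. Per cell, red cell RNA went the other way: 67 of 144 mutant and 42 of 247 wildtype members had 3 or more red cell genes, and the median cell was at 189 CPM in mutant and 109 CPM in wildtype. The embryonic globin gene Hbb-y had 4580 mutant UMIs, 99.7% of them in 1 cell, and 19 wildtype UMIs, and Hba-x had 1171 mutant UMIs and 1 wildtype UMI. Leaving out the 13 mutant and 29 wildtype cells richest in such RNA gives the values called "without mixed cells" below.

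Wls, the gene the Cre targets, was almost gone from mutant basal cells. It had 31 UMIs in 13 of 144 mutant cells, or 7.90 CPM (5.37 to 11.2), against 779 UMIs in 218 of 247 wildtype cells, or 161 CPM (150.0 to 173). It was 20.4-fold lower in the mutant, a log2 ratio of -4.35 (-4.92 to -3.83), and -6.44 without mixed cells. With each cell thinned to 12500 UMIs, so that depth is equal, 6.38% of 141 mutant basal cells (2.96 to 11.8%, Clopper-Pearson) and 85.3% of 190 wildtype basal cells (79.4 to 90.0%) had a Wls UMI. Dermal cells, outside the reach of the Cre, held 77.0 CPM in mutant and 91.8 CPM in wildtype skin. Wls (ENSMUSG00000028173) lies on chromosome 3, 159839672 to 159938664 (GRCm38).

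In all 10793 genes reached 20 UMIs in the 2 libraries together and were measured. Of these, 663 (6.14%) were 1.5-fold or more higher in mutant basal cells and 1459 (13.5%) were 1.5-fold or more lower, with a median log2 ratio of -0.10. Genes between these limits are called even. Scaling by the median of ratios moves every log2 ratio up by about that amount and gives 933 higher and 1190 lower genes, so a ratio near the 1.5-fold limit depends on the scaling. Without mixed cells the counts were 676 higher (6.71%) and 1240 lower (12.3%). In thinned cells 6.85% of all measured genes were higher and 13.7% lower. In cells with no UMI of a placode gene of the rule the shares were 8.01% and 15.2%. The counts of each list below are to be read beside these shares.

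**Figure D1:**
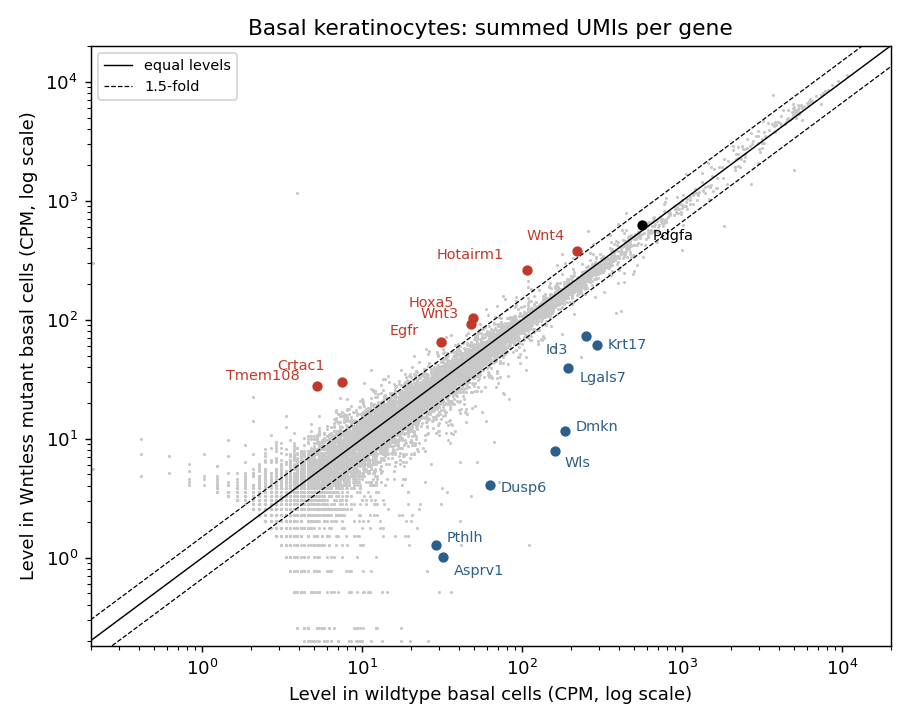
Level of each of 10793 genes in mutant basal cells (vertical axis) against wildtype basal cells (horizontal axis), in CPM on log axes, with levels under 0.2 CPM drawn at the edge. The solid line marks equal levels and the dashed lines 1.5-fold; Wls, Dmkn, Lgals7 and Krt17 lie far below the lines, and Wnt4, Wnt3, Hotairm1 and Hoxa5 above them.

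Transcripts of Wnt target genes were lower in mutant basal cells. Of 20 measured Wnt/beta-catenin target genes, 15 were 1.5-fold or more lower and 0 were higher. The median log2 ratio of the targets was -0.98, with Lgr6 at its bound, against -0.10 over all genes. Without mixed cells 13 of 16 were lower, and with genes under 20% of their dermal level left out as well, 10 of 13 were. The first group of these genes are secreted or membrane brakes on the pathway. Wif1, which binds Wnt outside the cell, had 6 UMIs in mutant and 94 in wildtype basal cells, a log2 ratio of -3.67 (-5.15 to -2.49). These were 1.53 and 19.4 CPM, and the dermis held more of it, at 21.3 CPM in mutant and 57.7 CPM in wildtype dermal cells. Nkd1, an inhibitor of Dishevelled, had 7 mutant and 62 wildtype UMIs in basal cells (-2.84, -4.22 to -1.72). The dermis held more of Nkd1 too, at 34.4 CPM in mutant and 97.9 CPM in wildtype dermal cells.

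Rnf43 and Znrf3, ligases that remove Frizzled receptors, are scarce in the dermis. Rnf43 stood at 7.39 CPM in mutant and 15.3 CPM in wildtype basal cells (log2 ratio -1.05, -1.72 to -0.41), with dermal cells at 0.0739 CPM in mutant and 0 CPM in wildtype skin. Znrf3 stood at 8.92 CPM in mutant and 20.3 CPM in wildtype cells (-1.18, -1.78 to -0.61). Axin2, the classical feedback inhibitor, stood at 8.67 CPM in mutant and 15.1 CPM in wildtype cells (-0.80, -1.43 to -0.19). The intervals of both ligases and Axin2 overlap. The Wnt-binding membrane protein Apcdd1 was lower at -1.48 (-1.96 to -1.03) and the receptor Tnfrsf19 at -0.82 (-1.12 to -0.52). Apcdd1 stood at 13.0 CPM in mutant and 36.4 CPM in wildtype basal cells, and dermal cells held more, at 104 and 171 CPM.

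Lgr6, an R-spondin receptor that marks stem cells of the adult follicle, had 0 UMIs in mutant and 31 UMIs in 22 wildtype basal cells. It was 8.38-fold lower when 3 counts over the mutant cells stand for the 0. Ccnd1, which encodes cyclin D1, stood at 49.0 CPM in mutant and 94.9 CPM in wildtype basal cells (-0.96, -1.21 to -0.71). Dermal cells held more Ccnd1, at 166 CPM in mutant and 258 CPM in wildtype skin. The targets were not equally low. Lef1, the factor that carries beta-catenin to DNA, stood at 98.4 CPM in mutant and 141 CPM in wildtype cells, a log2 ratio of -0.52 (-0.71 to -0.34) just under 1.5-fold. It was past 1.5-fold without mixed cells and in thinned cells, at -0.63 in both, and at -0.34 in cells without any placode gene. Fzd10 at 0.02 (-0.20 to 0.24), Myc at 0.16 (-0.21 to 0.53) and the Dickkopf receptor Kremen2 at 0.25 (0.11 to 0.40) were even.

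Of the members, 47.2% in the mutant and 34.8% in the wildtype library had 1 placode gene of the rule, and 9.03% and 19.4% had 2. The targets were therefore also read in cells with no UMI of the 8 placode genes, 63 mutant and 113 wildtype. Depth was not equal, at medians of 23427 UMIs in these mutant and 16872 UMIs in these wildtype cells. A placode gene is thus more easily missed in the wildtype cells, and the part of this in the values was not tested. In these cells 7 of 12 measured targets were lower and 0 higher, with a median of -1.13. The log2 ratio was -1.20 for Rnf43, -1.06 for Znrf3 and -1.28 for Tnfrsf19, but -0.53 for Axin2, under 1.5-fold. Wif1 had 0 mutant and 18 wildtype UMIs in these cells, and Nkd1 had 3 and 30.

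Counted per cell at 12500 UMIs, 6 of 141 mutant basal cells (4.26%, 1.58 to 9.03%) and 41 of 190 wildtype basal cells (21.6%, 16.0 to 28.1%) had a UMI of 3 or more of 8 Wnt target genes. Without thinning, over all 144 mutant and 247 wildtype members, the shares were 21.5% in mutant and 32.8% in wildtype basal cells. Wildtype placode cells gave 61.0% at the same depth. Dermal cells gave 20.9% in the mutant and 49.9% in the wildtype library, so the order of the genotypes was the same in the layer below. Wnt target RNA in basal droplets can include dermal RNA, and its part in these shares was not tested.

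Promoter windows of the targets were searched because their genes were lower together. Those printed were picked because they hold a match, and for each gene the first window with a match was taken. The window of Nkd1 held 0 matches and is not printed. The window of Tnfrsf19 lies inside the span of the gene (60963875 to 61046490). Of the 20 targets, 15 had a window in the RefSeq table (GRCm38.p6, 250 bases before to 50 after a start). The Tcf/Lef words CTTTGAT and CTTTGTT were searched on both strands. Either word stood in the windows of 3 of 15 targets, Dkk1, Sp5 and Tnfrsf19, and of 10.6% of all genes with a window. In the next lines the letters of a match are in capitals, the first for Sp5 on the plus strand at chr2:70474673-70474972 and the second for Tnfrsf19 on the minus strand at chr14:61037938-61038237, both 5′ to 3′ along the gene.
Sp5: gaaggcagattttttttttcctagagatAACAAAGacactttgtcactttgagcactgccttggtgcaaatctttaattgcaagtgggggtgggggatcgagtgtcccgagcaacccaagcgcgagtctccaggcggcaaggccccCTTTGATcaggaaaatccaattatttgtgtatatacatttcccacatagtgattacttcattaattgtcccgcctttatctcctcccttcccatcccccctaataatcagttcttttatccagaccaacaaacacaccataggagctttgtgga
Tnfrsf19: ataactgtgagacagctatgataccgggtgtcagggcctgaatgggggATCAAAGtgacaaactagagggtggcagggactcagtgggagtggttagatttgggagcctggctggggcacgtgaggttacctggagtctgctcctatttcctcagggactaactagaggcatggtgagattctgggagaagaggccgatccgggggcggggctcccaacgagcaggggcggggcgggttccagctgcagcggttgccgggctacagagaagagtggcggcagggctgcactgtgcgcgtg
A match is a string of letters and not a bound site. Sp5, a transcription factor of the pathway, had 5 UMIs in mutant and 26 UMIs in wildtype basal cells (log2 ratio -2.08, -3.81 to -0.67), and dermal cells held more of it, at 35.4 CPM in mutant and 55.1 CPM in wildtype skin.

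**Figure D2:**
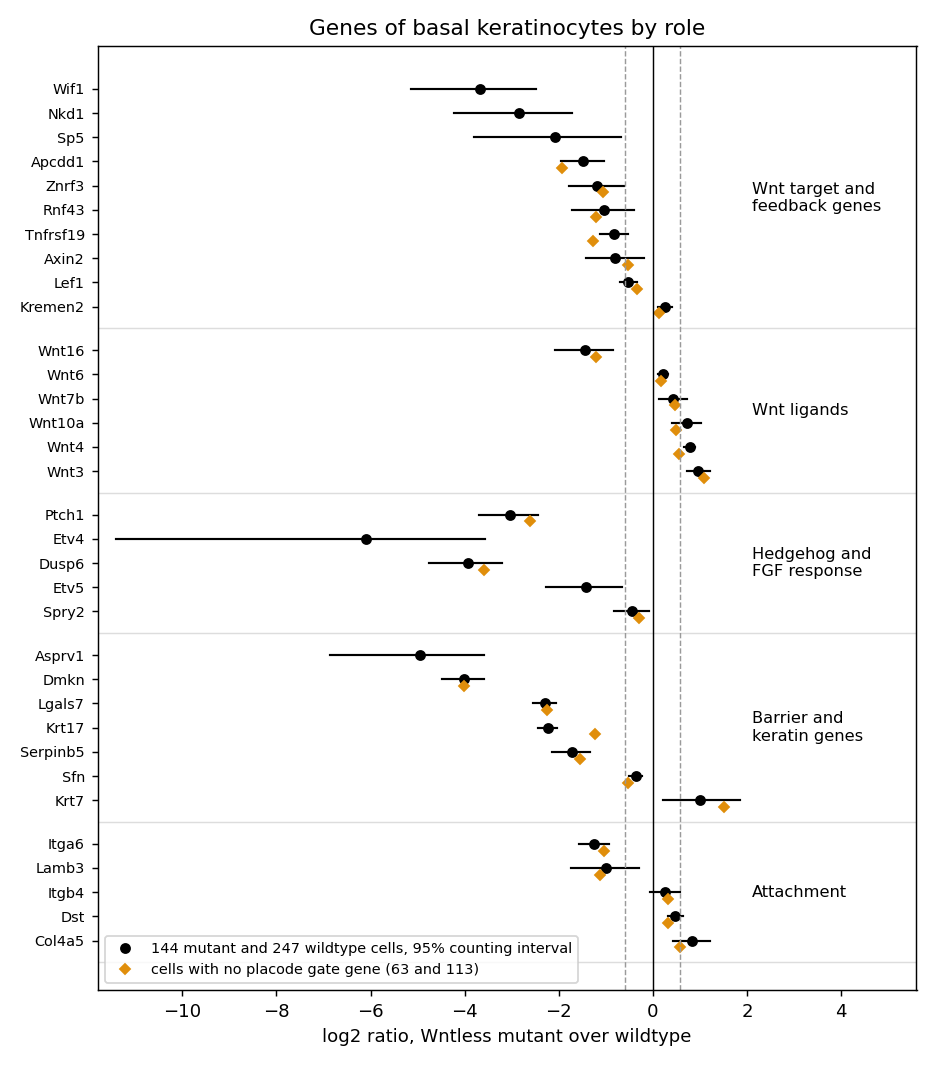
Log2 ratios, mutant over wildtype, of basal genes grouped by role. Black points with bars show all members with their 95% counting interval, orange diamonds the cells without any placode gene of the rule, and dashed lines 1.5-fold; the diamonds of Dmkn and Lgals7 lie on the black points, while that of Krt17 lies nearer to 0. Genes with 3 or fewer mutant UMIs in those cells have no diamond.

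Transcripts of the Wnt ligands themselves were kept, and several were higher in mutant basal cells. Of 12 measured genes of ligands and their secretion, 5 were higher, 3 lower (Wls among them) and 4 between, at a median of 0.43. In cells thinned to 12500 UMIs 2 of 10 were higher. Wnt4 had 1483 UMIs in mutant and 1065 in wildtype basal cells, or 378 and 220.2 CPM, a log2 ratio of 0.78 (0.67 to 0.89). Wnt3 stood at 92.6 CPM in mutant and 47.6 CPM in wildtype cells (0.96, 0.72 to 1.21), and Wnt10a at 52.8 and 32.0 CPM (0.72, 0.41 to 1.03). Wnt7a and Wnt3a, both near 0.62, had few UMIs.

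Wnt6 stood at 332 CPM in mutant and 288 CPM in wildtype basal cells (0.21, 0.10 to 0.32), and Wnt7b had 196 mutant and 179 wildtype UMIs (0.43, 0.13 to 0.73). Wnt16 went the other way, at 7.65 CPM in mutant and 20.9 CPM in wildtype cells (-1.45, -2.09 to -0.85). Porcn, which attaches the lipid that Wnt ligands need for secretion, had 10 mutant and 19 wildtype UMIs, too few for a direction (-0.62, -1.89 to 0.55). In cells without any placode gene Wnt3 stood at 1.09, Wnt4 at 0.56 and Wnt10a at 0.50, so only Wnt3 of the 3 passed 1.5-fold there. Without mixed cells all 3 did, at 0.85, 0.66 and 0.66.

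The receptors and modulators of the pathway were more even. Of 33 measured, 4 were higher, 8 lower and 21 between, with a median of 0.03. Sostdc1, a secreted inhibitor of Wnt and BMP that surrounds placodes, stood at 208 CPM in mutant and 431 CPM in wildtype basal cells (-1.05, -1.17 to -0.94). The Groucho co-repressor Tle4 stood at 7.14 and 18.2 CPM (-1.35, -2.02 to -0.72), and the R-spondin receptor Lgr4 at 18.6 and 31.8 CPM (-0.77, -1.20 to -0.36). The co-receptors Lrp5 at 0.03 and Lrp6 at 0.08 and the receptor Fzd2 at 0.07 were even. Rspo3, an R-spondin ligand, was higher at 1.48 (0.75 to 2.25), with 13.3 CPM in mutant and 4.76 CPM in wildtype basal cells, but dermal cells held 51.4 and 56.7 CPM.

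Ctnnb1, the gene of beta-catenin, stood at 248 CPM in mutant and 430.3 CPM in wildtype basal cells (-0.79, -0.91 to -0.68). In cells without any placode gene the log2 ratio was -0.41. Wildtype placode cells held 1014 CPM.

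Of 10 measured genes of the Hedgehog pathway, through which cells receive Sonic hedgehog from the placode, 3 were lower, 2 higher and 5 between. The median log2 ratio was -0.14, and 30.0% lower and 20.0% higher stand against 13.5% and 6.14% of all measured genes. Ptch1 encodes a receptor of Sonic hedgehog that the pathway itself induces. Ptch1 stood at 6.37 CPM in mutant and 52.3 CPM in wildtype basal cells (-3.04, -3.69 to -2.44). Gli1, a further target, had 0 mutant and 46 wildtype UMIs, 12.4-fold lower against 3 counts over the mutant cells. In cells without any placode gene Ptch1 was at -2.61. Dermal cells held 6.17 CPM of Ptch1 in mutant and 62.5 CPM in wildtype skin.

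Smo, which passes the signal on, at -0.38 and the factors Gli2 at -0.05 and Gli3 at -0.08 lay within 1.5-fold. Gli2 had 9 mutant and 24 wildtype UMIs (-0.89) in cells without any placode gene, while there Smo and Gli3 stayed within 1.5-fold at -0.08 and -0.51. Gas1, a co-receptor and also a growth arrest gene, was higher, at 297 CPM in mutant and 185 CPM in wildtype basal cells (0.69, 0.56 to 0.81), as was the co-receptor Cdon with 87 mutant and 58 wildtype UMIs (0.89, 0.39 to 1.39). Neither passed 1.5-fold in cells without any placode gene, where Gas1 was at 0.38 and Cdon at 0.47, and 0 of 9 Hedgehog genes were higher and 3 lower.

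Of 15 measured FGF genes, 10 were lower and 0 higher, with a median log2 ratio of -1.11. In thinned cells 5 of 12 were lower (median -0.57), and without the highest doublet scores 7 of 13 were (median -0.61). The list holds Egr1 at -1.37 and Ier3 at -1.31, which are also among the genes that dissociation induces. Dusp6, a phosphatase that ERK signalling induces, had 16 mutant and 302 wildtype UMIs (-3.94, -4.76 to -3.21), and 2.84% of mutant (0.778 to 7.10%) and 30.0% of wildtype basal cells (23.6 to 37.1%) had a UMI at 12500 UMIs. Etv4, an ETS factor downstream of FGF receptors, had 1 mutant and 84 wildtype UMIs (-6.09, -11.41 to -3.57). In cells without any placode gene Dusp6 had 4 mutant and 69 wildtype UMIs (-3.59), and Etv4 had 0 and 16 UMIs. The main epidermal receptor Fgfr2 was even, at 141 CPM in mutant and 122 CPM in wildtype basal cells (0.21, 0.04 to 0.38).

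Placode genes outside the rule were lower as a group, and cells with 3 or more of the 8 rule genes had been removed. Of 22 measured, 16 were lower and 2 higher, with a median of -1.43, and in cells without any rule gene 9 of 14 were lower and 2 higher, with a median of -0.94. Pthlh, a secreted peptide, had 5 mutant and 140 wildtype UMIs (-4.51, -6.15 to -3.25). Sox9, a follicle stem cell factor, stood at 13.0 CPM in mutant and 29.8 CPM in wildtype basal cells (-1.20, -1.69 to -0.73). Wildtype placode cells held 23.2 CPM of Sox9, and dermal cells 31.0 CPM in mutant and 21.6 CPM in wildtype skin. Barx2, a homeobox factor, was higher in mutant basal cells, at 71.9 CPM in mutant and 33.5 CPM in wildtype (1.10, 0.82 to 1.39). Pdgfa, the platelet growth factor that keratinocytes send to the dermis, was even at 621 and 557 CPM (0.16, 0.08 to 0.24). Of the rule's own placode genes, which only describe the cells, Bmp2 stood at 0.765 CPM in mutant and 10.1 CPM in wildtype members, Ltb at 14.3 and 35.4 CPM and Wnt10b at 27.0 and 19.6 CPM.

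The BMP pathway had 8 lower (38.1%), 1 higher (4.76%) and 12 even genes of 21 measured, against 13.5% and 6.14% of all measured genes. In cells without any placode gene 5 of 16 were lower, against 15.2% of all genes measured there. Id3, an inhibitor of helix-loop-helix factors that BMP induces, stood at 72.9 CPM in mutant and 249 CPM in wildtype basal cells (-1.77, -1.96 to -1.59), and Id1 at 37.2 and 69.5 CPM (-0.90, -1.19 to -0.62). Dermal cells held 186 CPM of Id3 in mutant and 313 CPM in wildtype skin. The ligand Bmp7 at -0.03 and the receptor Bmpr1a at 0.13 were even.

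Genes of the stratifying epidermis gave some of the largest differences. Dmkn (dermokine, a secreted barrier protein) had 45 UMIs in 19 of 144 mutant cells, or 11.5 CPM, against 895 UMIs in 169 of 247 wildtype cells, or 185 CPM. It was 16.1-fold lower, a log2 ratio of -4.01 (-4.48 to -3.58), with -4.10 without mixed cells and -4.02 in cells without any placode gene. At equal depth 10.6% of mutant (6.08 to 16.9%) and 66.3% of wildtype basal cells (59.1 to 73.0%) had a Dmkn UMI, against 0.260% of mutant and 0.103% of wildtype dermal cells. The 8 mutant and 16 wildtype suprabasal cells, which the rule sets apart by Krt1, Krt10, Krtdap and Sbsn, held 761 and 895 CPM of Dmkn.

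Dmkn lies on chromosome 7, 30763756 to 30781063, between Sbsn (suprabasin, 30751471 to 30756134) and Krtdap (30787896 to 30791097), which the rule used. As a description, Krtdap stood at 3.82 CPM in mutant and 31.6 CPM in wildtype members and Sbsn at 4.33 and 10.5 CPM. Krt10, another rule gene, did not share this, at 50.5 CPM in mutant and 44.2 CPM in wildtype members.

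Asprv1, a protease that processes filaggrin, had 4 UMIs over 4 mutant cells and 154 over 89 wildtype cells (-4.96, -6.86 to -3.58). Lgals7, the keratinocyte lectin galectin-7, stood at 39.5 CPM in mutant and 194 CPM in wildtype basal cells (-2.30, -2.55 to -2.05). The maspin gene Serpinb5 stood at 16.8 and 55.8 CPM (-1.73, -2.14 to -1.34). In cells without any placode gene Lgals7 was at -2.26 and Serpinb5 at -1.56. Of 13 measured suprabasal and differentiation genes, 5 were lower, 1 higher and 7 between, with a median of -0.37. Sfn at -0.37 (-0.51 to -0.24), the fatty acid carrier gene Fabp5 at -0.19 (-0.22 to -0.15) and Trim29 at 0.02 (-0.21 to 0.25) lay within 1.5-fold, so the list did not differ as 1 block.

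Krt17, a keratin of placodes and periderm, stood at 61.4 CPM in mutant and 291 CPM in wildtype basal cells (-2.24, -2.45 to -2.04), and at -1.24 in cells without any placode gene. Wildtype placode cells held 889 CPM. Krt7, a keratin of simple epithelia and periderm, stood at 9.18 CPM in mutant and 4.55 CPM in wildtype cells (1.01, 0.21 to 1.85).

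**Figure D3:**
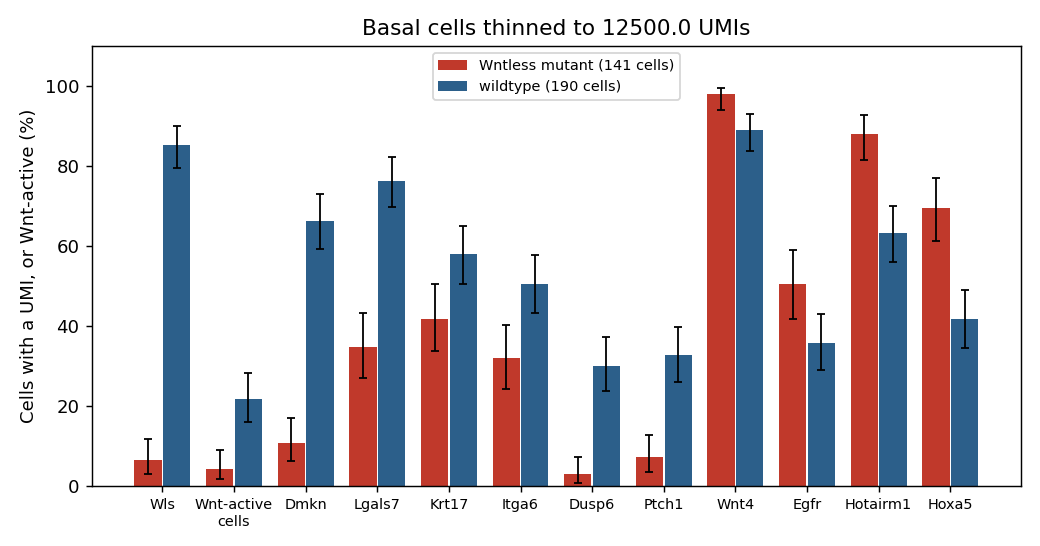
Share of basal cells, thinned to 12500 UMIs, with a UMI of each gene, and of Wnt-active cells (a UMI of 3 or more of 8 target genes), for 141 mutant (left bars) and 190 wildtype cells (right bars), with Clopper-Pearson 95% intervals. Wls, Dmkn, Lgals7, Dusp6 and Ptch1 were found in fewer mutant cells, and Hotairm1, Hoxa5, Egfr and Wnt4 in more.

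Genes for attachment to the basement membrane differed in both directions. Of 32 measured hemidesmosome and basement membrane genes, 3 were higher (9.38%), 10 lower (31.2%) and 19 between, with a median of -0.08. All measured genes gave 6.14% higher and 13.5% lower. Itga6, the alpha chain of the hemidesmosome integrin, stood at 29.6 CPM in mutant and 70.3 CPM in wildtype basal cells (-1.25, -1.57 to -0.94), while its partner Itgb4 stood at 42.6 and 35.8 CPM (0.25, -0.06 to 0.57). At equal depth 31.9% of mutant (24.3 to 40.3%) and 50.5% of wildtype basal cells (43.2 to 57.8%) had an Itga6 UMI.

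Of the chains of laminin-332, the ligand of that integrin, Lamb3 stood at 6.12 CPM in mutant and 12.2 CPM in wildtype cells (log2 ratio between -1.74 and -0.29), while Lama3 was even at 19.6 and 20.9 CPM (-0.09, -0.54 to 0.35). Col17a1, a transmembrane collagen of hemidesmosomes, stood at -0.49 (-0.76 to -0.22). Higher were the basement membrane collagen genes Col4a5 at 0.82 (0.43 to 1.21) and Col4a6 at 1.06 (0.33 to 1.82), and Fras1, a protein that holds epidermis to dermis, at 82.6 CPM in mutant and 53.8 CPM in wildtype cells (0.62, 0.38 to 0.86). Itga6 and Lamb3 passed 1.5-fold in cells without any placode gene too, at -1.03 and -1.13, while Col4a5 and Fras1 lay under it, at 0.58 and 0.49.

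Junction genes were mostly even, with 3 higher, 5 lower and 17 between of 25 measured and a median of -0.04, and 1 of 24 was higher without mixed cells. E-cadherin (Cdh1) stood at 29.6 CPM in mutant and 28.3 CPM in wildtype basal cells (0.06, -0.31 to 0.43), and P-cadherin (Cdh3) at 40.8 and 50.9 CPM (-0.32, -0.61 to -0.02). Desmoplakin (Dsp) stood at 137 and 182 CPM (-0.41, -0.57 to -0.25). The tight junction gene Cldn1 was higher at 18.9 CPM in mutant and 8.48 CPM in wildtype cells (1.15, 0.58 to 1.74). Dermal cells held 13.6 CPM of Cldn1 in mutant and 7.16 CPM in wildtype skin.

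The transcription factors of the epidermis gave 6 lower and 14 even genes of 20 measured, with 0 higher and a median of -0.26. Runx1 had 7 mutant and 48 wildtype UMIs (-2.48, -3.86 to -1.32), and Tfap2c, a regulator of keratinocyte fate, 30 and 78 UMIs (-1.08, -1.74 to -0.45). Dermal cells held 3.47 CPM of Runx1 in mutant and 17.1 CPM in wildtype skin. Gata3 at -0.60 (-0.85 to -0.34) and Tfap2a at -0.63 (-0.97 to -0.30) only just passed 1.5-fold, and in cells without any placode gene they stood at -0.22 and -0.31. Grhl2 at 0.54 (0.17 to 0.91) and Yap1 at 0.01 (-0.27 to 0.29) were within it.

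Among signals that basal cells send to other skin cells, differences went both ways. Of 35 measured, 8 were higher, 11 lower and 16 between, and without mixed cells 5 of 31 were higher. Bdnf, a neurotrophin, had 5 mutant and 95 wildtype UMIs (-3.95, -5.60 to -2.67). The neurotrophin gene Ntf3 went the other way, at 21.2 CPM in mutant and 13.4 CPM in wildtype basal cells (0.65, 0.17 to 1.15). Igfbp5, which binds insulin-like growth factors, stood at 359 and 177 CPM (1.02, 0.89 to 1.14), and dermal cells held 1242 CPM in mutant and 540.4 CPM in wildtype skin. The chemokine gene Cxcl14 stood at 1280.2 and 1636 CPM (-0.35, -0.40 to -0.30) and the stem cell factor gene Kitl at 46.1 and 46.7 CPM (-0.02, -0.31 to 0.27).

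Egfr, the receptor through which keratinocytes receive growth signals, stood at 64.8 CPM in mutant and 30.8 CPM in wildtype basal cells (1.07, 0.77 to 1.37), and at 0.95 both without mixed cells and in cells without any placode gene. The EGF family ligand Nrg1 had 25 mutant and 13 wildtype UMIs (1.25, 0.22 to 2.34). The receptors Erbb2 at -0.24 and Erbb3 at -0.19 were even. Over the EGF family 2 of 9 were higher (22.2%, against 6.14% of all measured genes) and 1 lower (11.1%, against 13.5%).

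**Figure D4:**
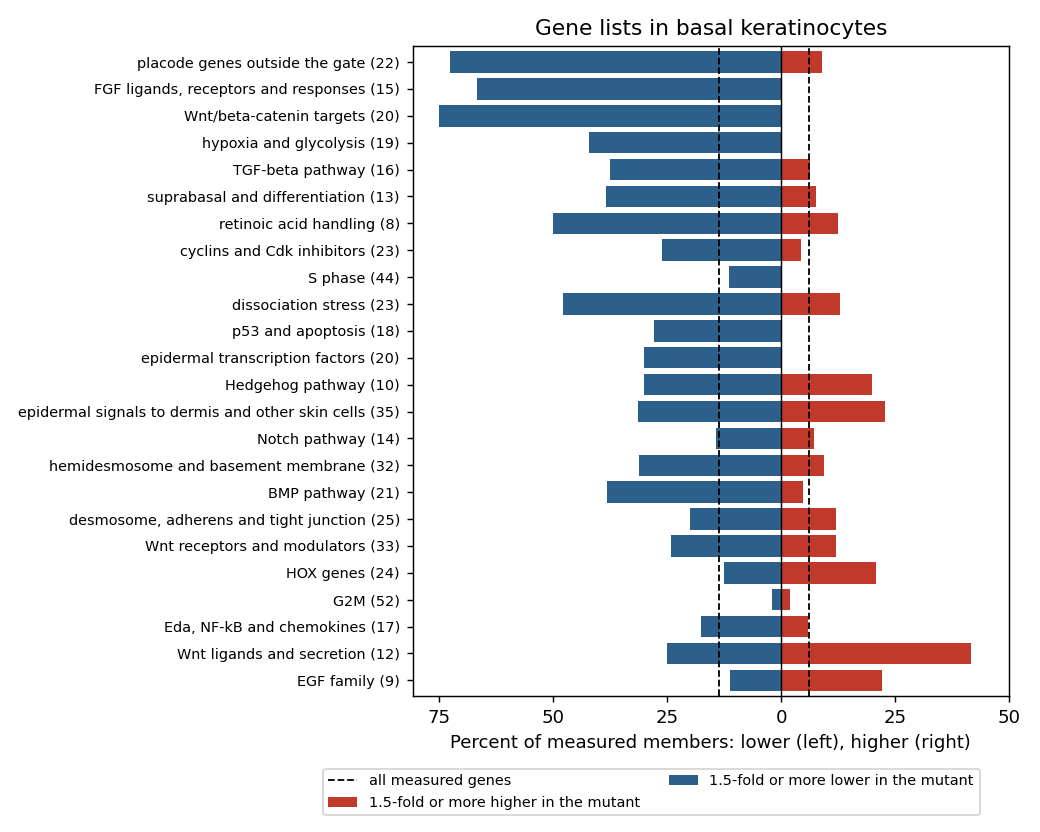
Percent of the measured members that were 1.5-fold or more lower (left, blue) or higher (right, red) in mutant basal cells, for each list with 8 or more measured genes, with their number in brackets; lists of markers of other cell types are not drawn. Dashed lines mark all 10793 genes, 13.5% lower and 6.14% higher; of the lists drawn, Wnt targets, placode genes and FGF genes reach farthest left, and Wnt ligands farthest right.

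HOX genes record position along the body, and several of the HoxA cluster were higher. Over all measured genes 6.14% were higher and 13.5% lower. Of 24 measured HOX genes, 5 were higher (20.8%), 3 lower (12.5%) and 16 between, with a median of 0.08. Among those higher were Hotairm1, Hoxa3, Hoxa4 and Hoxa5, which lie in the HoxA cluster on chromosome 6. Hotairm1, a long noncoding RNA of the cluster, had 1033 UMIs over 137 mutant cells and 518 over 175 wildtype cells, or 263 and 107 CPM (1.30, 1.14 to 1.45). Hoxa5 stood at 103 CPM in mutant and 49.4 CPM in wildtype basal cells (1.06, 0.82 to 1.29), Hoxa3 at 16.1 and 7.65 CPM (1.07, 0.46 to 1.70) and Hoxa4 at 18.1 and 11 CPM (0.72, 0.19 to 1.27).

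Hoxa2 was even at 0.55 (-0.24 to 1.34), with 32 mutant and 27 wildtype UMIs. Farther along the cluster Hoxa7 stood at 0.38 (0.23 to 0.53) and Hoxa9 at 0.07 (-0.96 to 1.07). At equal depth 69.5% of mutant (61.2 to 77.0%) and 41.6% of wildtype basal cells (34.5 to 48.9%) had a Hoxa5 UMI, against 46 of 3844 mutant and 17 of 1938 wildtype dermal cells of that depth. In cells without any placode gene Hotairm1 was at 1.14 and Hoxa5 at 1.11, Hoxa3 had 25 mutant and 18 wildtype UMIs, and Hoxa4 was under 1.5-fold at 0.47.

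Gm15050, an unnamed transcript within the span of Hoxa3 and among the 12 highest genes, had 132 mutant and 70 wildtype UMIs (1.22, 0.79 to 1.66). The span of Hoxa3 (52169062 to 52213336, GRCm38) covers Hoxa4 and Hoxa5 on the map, and the strand setting of the counting is not given in the sources used here, so reads of overlapping genes may be shared. Hoxb2, Hoxb3 and Hoxb4 lay at 0.09 to 0.13. Hoxc9 was lower, with 9 mutant and 46 wildtype UMIs (-2.05), but dermal cells held 48.2 CPM in mutant and 56.0 CPM in wildtype skin. The other lower genes of the list, Hoxd4 and Hoxd8, had 7 and 17 UMIs in mutant and 13 and 34 UMIs in wildtype basal cells.

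**Figure D5:**
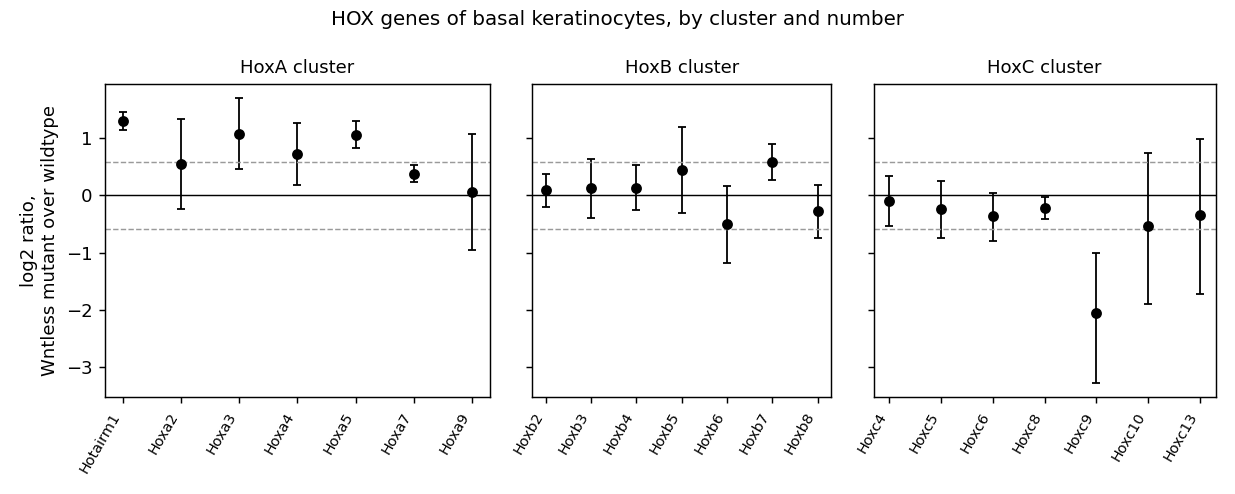
Log2 ratios, mutant over wildtype, of HOX genes of the HoxA, HoxB and HoxC clusters in basal cells, with 95% counting intervals and dashed lines at 1.5-fold. Hotairm1, Hoxa3, Hoxa4 and Hoxa5 lie above the upper line, and Hoxc9 below the lower one.

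The other genes among the 12 highest of those with 100 or more UMIs share no list. Tmem108, a transmembrane protein gene, stood at 27.8 CPM in mutant and 5.17 CPM in wildtype basal cells (2.43, 1.79 to 3.12). Crtac1, which encodes a cartilage acidic protein, stood at 29.8 CPM in mutant and 7.44 CPM in wildtype basal cells (2.00, 1.45 to 2.58), and Nudt11 at 38.0 and 11.4 CPM (1.74, 1.28 to 2.21). Without mixed cells they were at 2.65, 1.89 and 1.61. The rest were Triqk at 1.60, L3hypdh with 115 mutant and 50 wildtype UMIs, Ntng1 at 1.43, Dipk1c at 1.35, Dipk1a at 1.25, Eif3j2 at 1.23 and the axon guidance receptor Robo2 at 1.21. Some of these were higher in the mutant dermis too. Dermal log2 ratios were 1.57 for Dipk1c, 0.97 for Eif3j2, 0.96 for L3hypdh, 0.49 for Triqk, 0.37 for Ntng1, 0.25 for Dipk1a and -1.13 for Robo2. In wildtype placode cells Crtac1 stood at 1.43 CPM, under the wildtype basal level. Tmem108 stood at 3.15 CPM there, with 11 UMIs, too few for a direction (log2 ratio, wildtype basal over placode, 0.71, -0.36 to 1.88).

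Several of the 12 lowest genes came from few wildtype cells. Igfbp7 was found in 2 mutant and 19 wildtype cells, with 43.8% of the wildtype UMIs in 1 cell, Crip2 in 5 and 17 cells with 47.9% in 1 wildtype cell, and the macrophage gene Pf4 in 5 and 18 cells with 28.6% in 1 wildtype cell. The log2 ratios were -5.89 for Igfbp7, -4.51 for Crip2 and -5.01 for Pf4. Without mixed cells Igfbp7 had 2 mutant and 7 wildtype UMIs, Crip2 had 3 and 4 and Pf4 had 5 and 7. Tyrobp and Fcer1g, receptor adaptors of blood cells, had 3 mutant and 122 wildtype UMIs each, and 2 and 0 (Tyrobp) and 3 and 10 (Fcer1g) without mixed cells. S100a9, a calcium-binding protein gene, had 0 mutant UMIs and 124 UMIs in 22 wildtype cells, with 30.6% of the wildtype UMIs in 1 cell. It was 33.5-fold lower against 3 counts over the mutant cells, and the interval began at a log2 ratio of -4.75. Wildtype placode cells held 263 CPM of S100a9 and wildtype basal cells 25.6 CPM. Of the 124 UMIs, 122 remained without mixed cells.

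Gm10320 and Tpm3-rs7 were lower in the mutant dermis too. Gm10320 had 5 mutant and 531 wildtype UMIs in basal cells (-6.43, -8.06 to -5.20), and dermal cells held 1.60 CPM in mutant and 211 CPM in wildtype skin. Tpm3-rs7 had 8 mutant and 196 wildtype UMIs (-4.31, -5.54 to -3.31), with dermal levels of 3.04 and 65.6 CPM. Tpm3-rs7 carries the name of a copy of the tropomyosin gene Tpm3, so its counts are uncertain where reads are shared.

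Cells in division were common in both libraries. After thinning, 68.1% of mutant (59.7 to 75.7%) and 78.9% of wildtype basal cells (72.5 to 84.5%) had a UMI of 3 or more of 8 cell cycle genes, but without thinning the shares were 72.9% and 71.3%, so the order turned. The thinned shares cover only the 141 of 144 mutant and 190 of 247 wildtype members that were deep enough. The thinned and unthinned shares therefore differ in cells as well as in depth. Of 44 S phase genes 5 were lower (11.4%, against 13.5% of all measured genes) and 0 higher, with a median of -0.33. The count of lower genes was 22 without the highest doublet scores, 18 in cells without any placode gene and 11 without mixed cells. Over all genes measured in those settings, 10.8%, 15.2% and 12.3% were lower. Rrm2, a subunit of the enzyme that makes DNA precursors, stood at 43.1 CPM in mutant and 72.2 CPM in wildtype basal cells (-0.74, -1.02 to -0.47). G2M genes were even, with 1 higher, 1 lower and 50 between of 52 and a median of 0.08. The count of higher genes was 9 under 3 suprabasal UMIs (median 0.32), 5 without the highest doublet scores and 4 without mixed cells. The lower one was Lbr, a protein of the inner nuclear membrane, at 43.6 and 96.4 CPM (-1.14, -1.41 to -0.89). Dermal cells held 47.6 CPM of Lbr in mutant and 95.8 CPM in wildtype skin.

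Glycolytic genes were lower in part. Of 19 measured genes of glycolysis and the hypoxia response, 8 were lower and 0 higher, with a median of -0.51. Ldha, which makes lactate, stood at 241 CPM in mutant and 491 CPM in wildtype basal cells (-1.03, -1.14 to -0.92), Pgk1 at 156 and 286 CPM (-0.88, -1.02 to -0.74) and Pkm at 337 and 569.9 CPM (-0.76, -0.85 to -0.66). Eno1 at -0.14 (-0.29 to 0.02) and Hk2 at 0.04 (-0.39 to 0.46) were even. Dermal cells held 311 CPM of Ldha in mutant and 485 CPM in wildtype skin. The stress genes that dissociation induces were also lower in part, with 11 lower (47.8%) and 3 higher (13.0%) of 23. Over all measured genes the shares were 13.5% and 6.14%. Fos stood at 18.9 CPM in mutant and 50.9 CPM in wildtype basal cells, and the chaperone gene Hspb1 at 66.8 and 31.6 CPM. Without mixed cells 6 of 20 stress genes were lower, and Fos had 35 mutant and 60 wildtype UMIs, a log2 ratio of -0.59 against -1.43 over all members. Without the highest doublet scores 6 of 20 were lower, with Fos at -0.90.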

How the data were processed

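Single-cell UMI counts of E14.5 skin were taken as the authors deposited them, 1 matrix per genotype, which per the file headers come from Cell Ranger 6.1.2 and per the submitters' processing notes use mm10. The barcode and feature lists give other information (names of cells and of 32285 genes). Their lists of dermal barcodes give no rule for the choice.

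UMIs of the members were summed per library and scaled to CPM, with exact Poisson intervals. Log2 ratios, mutant over wildtype, carry an exact 95% interval from the conditional binomial. A gene was measured when the libraries together held 20 or more UMIs of it, and 1.5-fold or more counted as higher or lower. A gene at 0 was set against 3 counts over the class. Shares used cells thinned to 12500 UMIs (141 of 144 mutant and 190 of 247 wildtype members were deep enough) with Clopper-Pearson intervals. PCR duplicates are removed by the identifiers, and intervals cover counting error only. Doublets were scored with Scrublet (scanpy 1.11.5) and left out only as an alternative; it called 185 of 7443 mutant barcodes (2.49%) and 241 of 7787 wildtype barcodes (3.09%), of which 11 and 28 were members. Mixed cells had 3 or more genes of a macrophage, endothelial, muscle, mural, melanoblast or Schwann list, or over 1% collagen or red cell UMIs.

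Named genes were Wls, the 12 genes with the highest ratio and the 12 with the lowest that had 100 or more UMIs, without mitochondrial, ribosomal, haemoglobin, sex-linked and rule genes and genes under 20% of their dermal level, and at most 4 genes of each list (50 UMIs or more, largest differences); further genes named in the text were chosen after their values were seen. The members and the 35 lists were chosen with earlier results of these data known. The ratio intervals were checked on simulated counts. Gene coordinates are from GENCODE M21 (GRCm38), which held 32235 of 32285 identifiers, and promoter sequences from RefSeq; the 2 promoter words were picked after matches of several words had been seen. The scripts ran in Python 3.11.15 (scipy 1.17.1, numpy 2.4.6, pandas 2.3.3). Some genes counted in the lists are not reported here by name.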

Additional observations from a re-analysis of the deposited data

How the results depend on the processing

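No paired analysis was possible because each genotype has 1 library, and for the same reason no library could be left out. With 50 or more UMIs required, 374 genes were higher and 854 lower. Lower Wnt targets numbered 15 over all members, 7 of 12 in cells without any placode gene (63 mutant and 113 wildtype cells) and 9 of 14 where genes scarce beside their dermal level were left out, both with fewer genes tested, and 10 to 16 under the other settings. Without thinning, 21.5% of mutant and 32.8% of wildtype basal cells were Wnt-active and 72.9% and 71.3% cycled. With 2 of 8 genes required, 31.9% of mutant and 55.3% of wildtype cells were Wnt-active and 75.2% and 86.3% cycled; without thinning the Wnt-active shares were then 63.2% and 65.2%. Of 128 named genes under 15 settings, 1642 of 1815 values lay within the counting interval, 162 lay outside it with the same sign and 11 reversed, in 4 genes. In a further 105 cases no value is given. There the cells held fewer than 20 UMIs of the gene, or the gene was left out as scarce beside its dermal level. Leaving out such genes alone keeps every other ratio as it was, so those values lie within the interval by design. Leaving them out together with mixed cells repeats the values without mixed cells. The counts are therefore not of separate checks.

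The reversed genes are red cell and muscle markers, which over all members stood at -1.46 (Hbb-bs), -1.56 (Hbb-bt), 8.22 (Hbb-y) and -1.41 (Actc1). Without cells over 1% red cell UMIs, Hbb-bs stood at 0.95, Hbb-bt at 0.67 and Hbb-y at -0.12. Without mixed cells, with or without the genes scarce beside their dermal level, Hbb-bs stood at 1.0, Hbb-bt at 0.68 and Hbb-y at -0.45. Without the top 8% of doublet scores Hbb-y stood at -0.70. Under 3 suprabasal UMIs Actc1 stood at 1.58. The cause was not tested. No member of either library had a Xist UMI, so a setting with only such cells gave no value. All limits are those of counting in 144 mutant and 247 wildtype cells of 1 library each.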

Other observations

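TGF-beta genes gave 6 lower, 1 higher and 9 even of 16 measured in basal cells. Tgfb1, a ligand of the pathway, had 6 mutant and 77 wildtype UMIs (log2 ratio -3.38, -4.87 to -2.19), and was at -3.51 without mixed cells. Ccn2, a matricellular gene that TGF-beta and Yap induce, had 9 mutant and 98 wildtype UMIs (-3.14, -4.31 to -2.16), with 7 and 18 UMIs in cells without any placode gene. Notch genes were mostly even, with 2 lower (14.3%, against 13.5% of all measured genes), 1 higher and 11 between of 14. The ligand gene Dll1 was the higher one, with 43 mutant and 26 wildtype UMIs in basal cells (1.03, 0.29 to 1.79), and Notch1 stood at 46.4 and 48.6 CPM.

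Of 18 p53 and apoptosis genes 5 were lower (27.8%, against 13.5% of all measured genes) and 0 higher. In thinned cells 2 of 14 were lower, near the share over all genes measured there, 13.7%. Cdkn1a, which encodes the inhibitor p21, had 1 mutant and 43 wildtype UMIs (-5.12, -10.46 to -2.57), and the dermis held 2.23 CPM in mutant and 47.0 CPM in wildtype skin. Trp53 itself was even at 159 and 154 CPM. The retinoic acid genes gave 4 lower and 1 higher of 8, among them Crabp1 with 442 mutant and 1873 wildtype UMIs, a gene at 2854 and 3944 CPM in dermal cells. Without mixed cells Crabp1 had 54 mutant and 816 wildtype UMIs, a log2 ratio of -3.73 against -1.78 over all members, and it lay outside its counting interval in 8 of 13 settings. With genes scarce beside their dermal level left out, 2 of 6 retinoic acid genes were lower. Of 17 genes of the Eda receptor, NF-kB and chemokines 3 were lower (17.6%, against 13.5% of all measured genes) and 1 higher.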
